A study of Mus musculus with 12 samples.

Results

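Cardiomyocytes of mdx:Utrn+/- mice given PB1046 were compared with cardiomyocytes of mdx mice given saline. The comparison crosses both factors of the study: it sets the treated, more utrophin-poor genotype against the untreated, less severe one. It uses 6 of the 12 libraries, the 3 labelled mdx:Utrn+/- with the high dose of PB1046 and the 3 labelled mdx with saline, and the 12798 genes with a level of at least 1 TPM (a read count divided by gene length and by library total) in at least 3 of the 12 libraries, of 18530 in the table. All mice carried the mdx allele, which removes full-length dystrophin. The mdx:Utrn+/- mice also lacked 1 working copy of Utrn. Injections of saline or PB1046 ran every other day between weeks 4 and 12 of age, and hearts were taken at week 14, so dosing had stopped before the tissue was taken. Of the 0.75 and 1.5 mg/kg that the protocol mentions, the high dose is taken here as 1.5 mg/kg. The labels do not say whether each library is a mouse of its own, so the p-values measure the spread between libraries, which may be technical in part. A dystrophin-sufficient heart is not analysed here, so no value below gives the distance of either group from healthy muscle.

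Dystrophin anchors the actin cytoskeleton of a muscle fibre to laminin outside it through the dystroglycan and sarcoglycan complex, and utrophin, its autosomal relative, can take its place in part. Loss of a Utrn copy therefore worsens the disease of mdx mice. PB1046 is a long-acting analog of vasoactive intestinal peptide (VIP), whose receptors couple to the stimulatory G protein, raise cyclic AMP and activate protein kinase A and the transcription factor CREB. The series names these transcripts and those of NF-kB signaling as its subject.

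Some facts of the libraries bear on every value below. Depth was 18162940 to 25458194 recovered reads in saline mdx and 11050653 to 22546257 in treated mdx:Utrn+/-. Saline mdx library 1 and treated library 3 were the deepest of the 6 and held the least ribosomal Rn45s RNA, 1039 and 1178 TPM, against 7611 to 17798 TPM in the other 4. The 12 cardiomyocyte markers, such as Tnnt2, were all present and summed to 149723 to 154711 TPM in saline mdx and 148240 to 166205 TPM in treated mdx:Utrn+/-. Markers of other cells were present too: the 16 endothelial markers summed to 1598, 3270 and 4332 TPM in saline mdx and to 1699, 5574 and 2049 TPM in treated mdx:Utrn+/-, and the 18 macrophage markers in the table to 264, 927 and 156 against 209, 361 and 520 TPM. Fewer cells of a type and less RNA per cell cannot be told apart in such libraries.

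No gene separated the groups past the threshold. With limma on log2(TPM + 1), 0 of 12798 genes (0%) had an adjusted p under 0.05, and the smallest adjusted p was 0.409 (0.125 to 1 over the alternatives). At an unadjusted p under 0.05 there were 113 genes (0.883%), 41 higher (0.32%) and 72 lower (0.563%) in treated mdx:Utrn+/-, where an even spread of p would give 640. Limma-voom on recovered reads gave 0 and 110. The last bin of the limma p, above 0.95, held 873 genes, so p leaned toward 1. The shortfall of 113 against 640 is therefore not a measure of likeness. Klhl38, Dbp, Myl7 and Acot1, described below, each had a limma adjusted p of 0.9997 (0.95 to 1 over the alternatives), so differences are given with their 95% intervals, as treated mdx:Utrn+/- minus saline mdx on log2(TPM + 1). In the authors' deposited table, 368 of 18530 genes (1.99%) had a p under 0.05 and the false discovery rate was 1 for all of them. Leaving out saline mdx library 1 raised the 113 to 463, of which 327 were higher and 136 lower, and leaving out treated library 1 lowered it to 60.

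**Figure D1:**
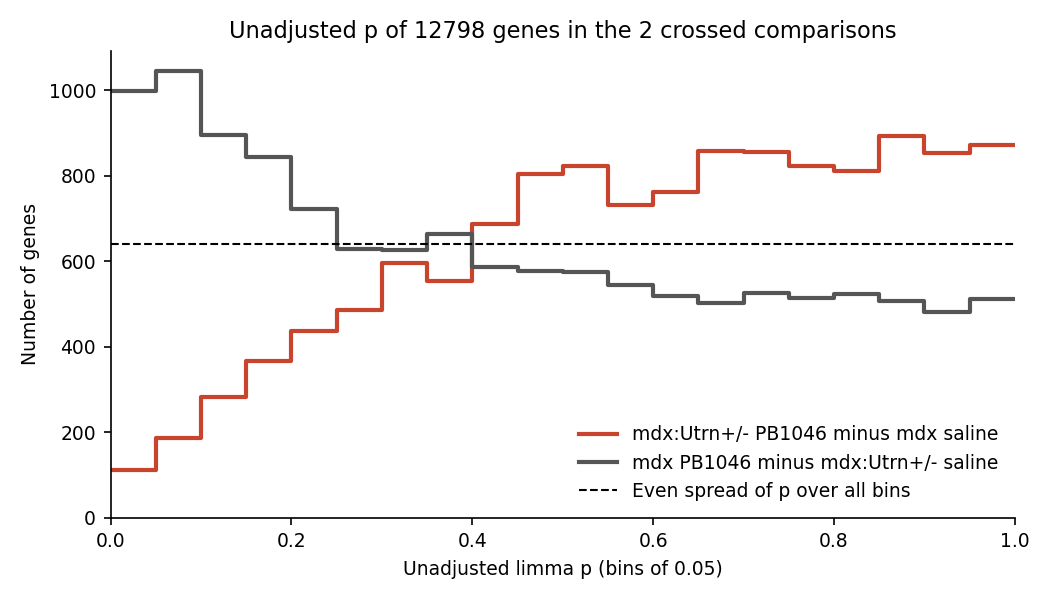
Number of genes (vertical axis) in each bin of 0.05 of the unadjusted limma p (horizontal axis) for treated mdx:Utrn+/- against saline mdx and for the opposite crossing of the factors, which shares no library with it. The first bin holds 113 genes in the comparison described here and 999 in the other, and the dashed line marks the 640 genes of an even spread.

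The opposite crossing, mdx with PB1046 against mdx:Utrn+/- with saline, uses the other 6 libraries and had 999 genes at an unadjusted p under 0.05 (7.81%), with 0 past the adjusted threshold. For each gene the difference between treated mdx:Utrn+/- and saline mdx is the sum of the average PB1046 difference and the average genotype difference, whereas the opposite crossing is the first minus the second. The median absolute log2 difference was 0.13 here and 0.23 there. Over the other 4 pairs of groups, which share libraries with these, it was 0.16 to 0.21, with 214 to 532 genes at an unadjusted p under 0.05.

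A missing call does not show likeness, so the intervals were counted as well. For 10116 genes (79%) the whole 95% interval lay within 1 log2 unit of 0, but for only 1870 (14.6%) did it lie within 0.5 units. An interval within 1 unit leaves out a 2-fold difference of TPM + 1, but for genes of few TPM not of TPM itself. With 0.1 added to TPM in place of 1 the count within 1 unit was 8295, and with limma-voom it was 8446. Among the 154 most abundant genes, 129 (83.8%) had an interval within 1 unit. Among the 6587 genes with a mean of at least 10 TPM, 30 differed by more than 1 log2 unit in the estimate, 20 higher and 10 lower. With 3 libraries a group a difference of 0.5 log2 units was thus not left out for most genes, and no difference of any size passed the adjusted threshold.

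Whole libraries gave the same picture. The distance used was the root mean square difference of log2(TPM + 1) over the 12798 genes. Between the groups it averaged 0.508 over 9 pairs of libraries (0.286 to 0.6197), which was less than within saline mdx (0.550, 0.440 to 0.627) and within treated mdx:Utrn+/- (0.550, 0.497 to 0.587), each over 3 pairs. The ratio of the between-group to the within-group mean was 0.925, and 0.867 to 1.003 when a library was left out, the highest of these without saline mdx library 1. Whether the ratio differs from 1 was not tested. All 3 saline mdx libraries had a treated mdx:Utrn+/- library as their nearest of the other 11. For saline mdx libraries 2 and 3 it was the same one, treated library 2. Saline mdx library 2 lay 0.4396 from it and almost as near, 0.4401, to saline mdx library 3. The reverse did not hold: treated libraries 1 and 2 were nearest to mdx libraries with PB1046, at 0.420 and 0.394, and only treated library 3 was nearest to a saline mdx library. Saline mdx library 1 and treated library 3 were the closest of all 66 pairs, at 0.286, and 166 genes differed between them by more than 1 log2 unit. Their recovered reads differed by a chi-square of 18.1 per degree of freedom, against 29.9 to 205 for the pairs within either group, so this pair had the smallest excess. The chi-square covers counting error only, and the 2 were kept as separate samples. These are also the deep libraries with little Rn45s, and the part of depth in their closeness was not tested. Without both of them the ratio was 0.987, an alternative chosen after seeing the data.

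**Figure D2:**
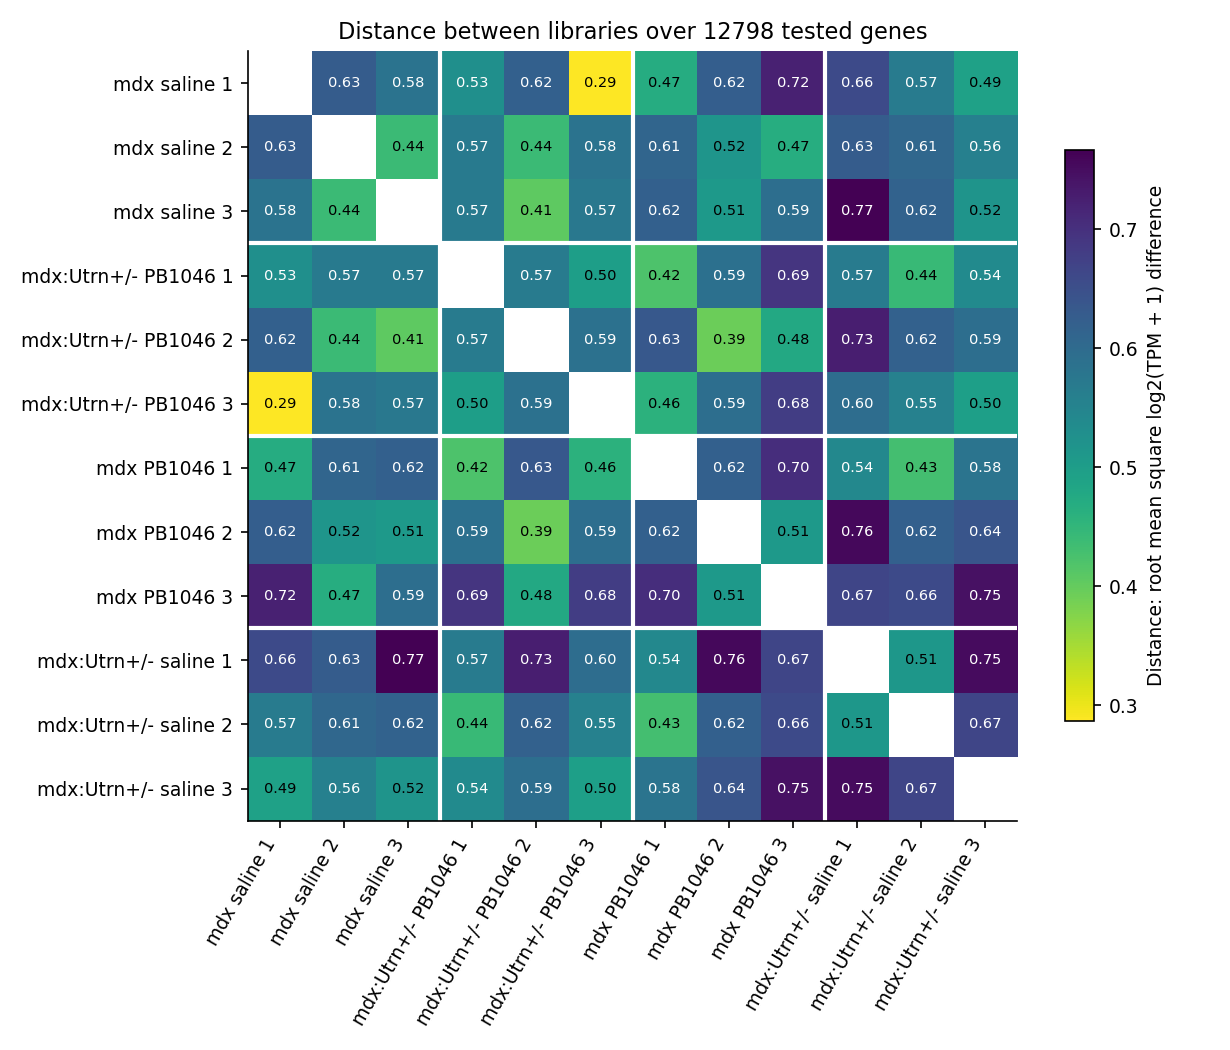
Root mean square log2(TPM + 1) difference between each pair of the 12 libraries, ordered by group, with the closest at 0.286 and the farthest at 0.767, with the values printed in the cells. The block of treated mdx:Utrn+/- against saline mdx holds the smallest distance, 0.286, and 3 of its 9 cells lie at or below 0.440.

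Utrn (chr10:12382188-12861735, minus strand, mm10) was the gene that should carry the genotype label. It read 8.92, 9.24 and 11.3 TPM in saline mdx and 4.39, 9.92 and 6.21 TPM in treated mdx:Utrn+/-. The treated mean was the lower one, but its library 2 lay above the first pair of saline mdx libraries in deposited TPM. After the scaling between libraries the values were 8.81, 8.56 and 11.1 against 5.30, 8.43 and 6.44, and the groups no longer overlapped. The log2 difference was -0.45 (95% interval -1.09 to 0.18), and a two-sided exact permutation test on the 6 libraries gave p = 0.1, the smallest this design allows. It was the sum of an average genotype difference of -0.64 and an average PB1046 difference of 0.19. The other libraries read 6.11, 17.1 and 18.3 TPM in mdx with PB1046 and 3.32, 6.28 and 5.31 TPM in mdx:Utrn+/- with saline. Over the alternatives the log2 difference of Utrn ran from -0.61 to -0.23. Endothelial markers summed to 1598, 3270 and 4332 TPM in saline mdx and 1699, 5574 and 2049 TPM in treated mdx:Utrn+/-. They summed to 1139, 4763 and 8363 TPM in mdx with PB1046 and 1386, 1576 and 1902 TPM in mdx:Utrn+/- with saline. The part of cell content in the Utrn values was not tested.

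Dmd, whose mdx transcript is made but yields no full-length protein, read 4.81, 3.25 and 4.56 TPM in saline mdx and 2.86, 3.91 and 2.98 TPM in treated mdx:Utrn+/-. The ranges overlapped, and the log2 difference was -0.23 (-0.89 to 0.43). Among the 19 tested genes of the dystrophin complex, 12 were higher and 7 lower (54.5% and 45.5% of all genes). Their median was 0.06 against 0.02 over all genes, and 0 had an unadjusted p under 0.05 (0.883% of all genes). At that share a list of this size can hold 0 without differing from other genes. Without the scaling 8 were higher and 11 lower. Over all genes 251 (1.96%) had no overlap between the groups both in deposited TPM and after scaling, 78 higher (0.609%) and 173 lower (1.35%), against 564 (4.41%) in the opposite crossing. Sgcd, a sarcoglycan, was higher without overlap, at 7.75, 6.95 and 8.29 against 12.6, 11.4 and 8.60 TPM, with a log2 difference of 0.51 (-0.27 to 1.30). Lama2, the laminin chain outside the fibre, was level at -0.01 (-0.45 to 0.42). Of the dystrophin complex, 14 of 19 intervals lay within 1 log2 unit of 0.

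Genes of contraction, the most abundant of these cells, were close between the groups. Myl2, the ventricular regulatory light chain, read 43591, 48368 and 51534 TPM in saline mdx and 47522, 47786 and 48704 TPM in treated mdx:Utrn+/-. Tnnt2, cardiac troponin T, read 16376, 16836 and 16092 against 14773, 16765 and 15485 TPM. Their log2 differences were 0.09 (-0.47 to 0.65) and 0.01 (-0.52 to 0.54), so a 2-fold difference lies outside either interval. Of 20 sarcomere genes 13 were higher, with a median of 0.06, and 16 intervals lay within 1 unit. Without the scaling 9 were higher, with a median of -0.02. Those lower at an unadjusted p under 0.05 were the atrial light chains Myl7 and Myl4. Neither stayed under it with the term for the 3 lowest library numbers, or without saline mdx library 1, saline mdx library 3, treated library 1 or treated library 3. Of 33 oxidative phosphorylation genes 30 were higher, by little: the differences ran from -0.15 to 0.26, with a median of 0.08. At an unadjusted p under 0.05 there were 0 of them (0.883% of all genes). Without the scaling 17 were higher (median 0.0028), and without treated library 3 11 were (median -0.05). For the same 33 genes the median average PB1046 difference was -0.22 and the median average genotype difference 0.29. Of 21 glycolysis genes 17 were higher, with a median of 0.06, but 8 were without the scaling (median -0.02), 8 without treated library 3 and 9 without saline mdx library 3. Their medians for PB1046 and genotype were -0.26 and 0.29. In these lists the PB1046 and genotype averages were of like size and opposite sign. The median PB1046 difference was -0.39 within mdx and -0.08 within mdx:Utrn+/- for oxidative phosphorylation, and -0.10 and -0.19 for glycolysis. The oxidative phosphorylation score, the mean of its members' centred log2 values, was 0.17, -0.51 and -0.64 in mdx with PB1046. Endothelial markers summed to 1139, 4763 and 8363 TPM in the same libraries. The part of cell content in these averages was not tested.

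**Figure D3:**
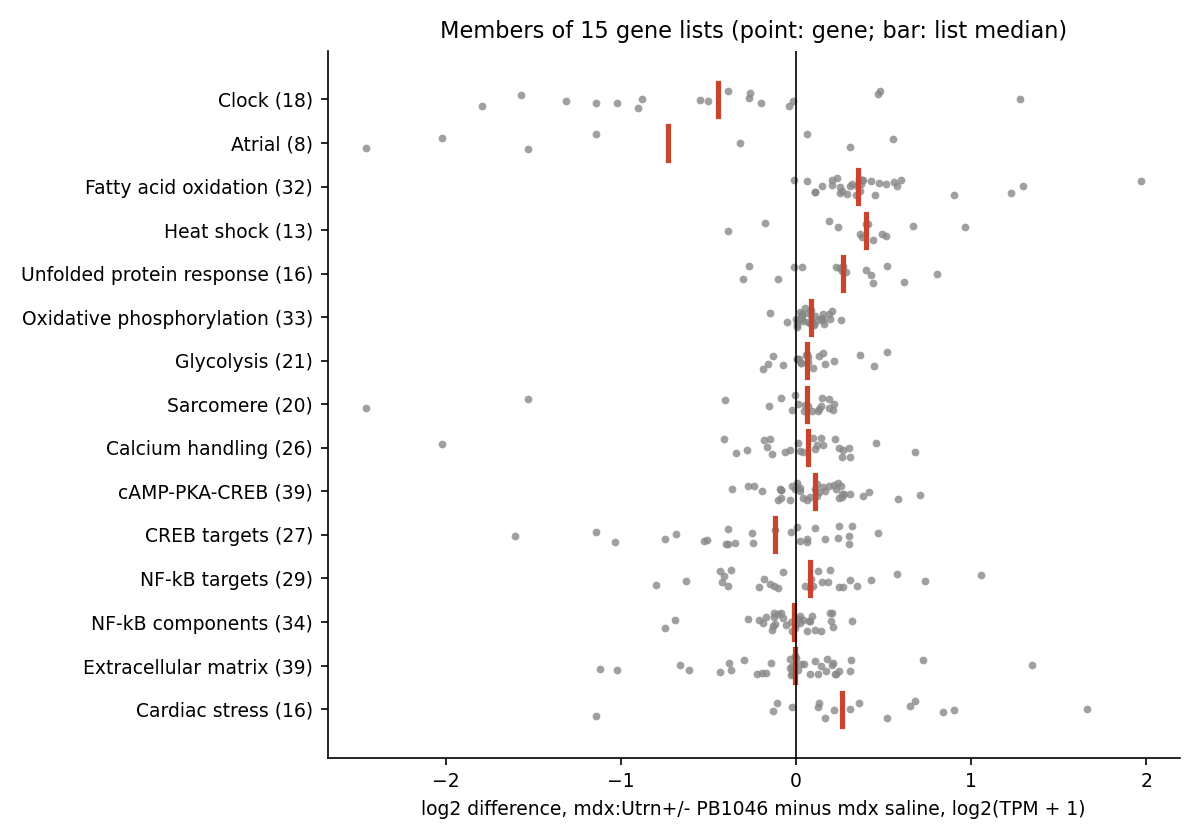
Log2 difference of each tested member (points, spread vertically for legibility) of 15 gene lists, treated mdx:Utrn+/- minus saline mdx, with the list median as a bar and the number of tested members in brackets. Clock and atrial genes lie mostly to the left, with medians of -0.45 and -0.73, and fatty acid oxidation genes to the right, with a median of 0.35, while oxidative phosphorylation genes crowd around 0.08.

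Of the gene lists, the clock list held the most members lower at an unadjusted p under 0.05. The circadian clock is a feedback loop in which CLOCK and BMAL1 (Arntl) switch on the Per and Cry genes, whose proteins repress them, while REV-ERB (Nr1d1, Nr1d2) represses Arntl. The output factors Dbp, Tef and Hlf carry the rhythm to other genes. Of 18 clock genes, all tested, 15 were lower and 3 higher in treated mdx:Utrn+/-, with a median log2 difference of -0.45 against 0.02 over all genes. At an unadjusted p under 0.05, 6 were lower (0.563% of all genes) and Arntl was higher (0.32%), none past the adjusted threshold. In 6 the groups did not overlap, all lower (1.35% of all genes).

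CLOCK and BMAL1 bind the E-box CACGTG, and the output factors bind the D-box TTANGTAA. For REV-ERB and ROR the pattern searched was TNGGTCA. Its N was not held to A or G, so the pattern is looser than the site of these receptors. Promoters from RefSeq (GRCm38.p6, 250 bases before to 50 after the start) matched 15 of the 18 clock genes. On either strand an E-box was in 5, a D-box in 1 and TNGGTCA in 4 of these 15, taking 1 promoter a gene. Of all 32851 promoters, several for some genes, 7.15%, 2.32% and 10.96% held them. Of 27025 gene symbols, 8.09%, 2.72% and 12.45% had at least 1 promoter with the motif. Ciart, Per3 and Tef, which were low, and Arntl, which was high, are shown because they hold these motifs, given in capitals. Ciart lies at chr3:95882179-95882478 (minus strand) and holds 3 E-boxes. Per3 lies at chr4:151044616-151044915 (minus strand) with 2 D-boxes and a TNGGTCA match. Tef lies at chr15:81802423-81802722 (plus strand) with an E-box. Arntl lies at chr7:113207215-113207514 (plus strand) with 2 TNGGTCA matches. A match describes the letters and is not a binding site. The TNGGTCA matches in Arntl and Per3 hold T or C at N, so they do not show a REV-ERB or ROR site. The windows of Dbp, Hlf and Nr1d2, which were also low, held none of the 3 motifs, so these motifs and the direction did not go together throughout.
Ciart: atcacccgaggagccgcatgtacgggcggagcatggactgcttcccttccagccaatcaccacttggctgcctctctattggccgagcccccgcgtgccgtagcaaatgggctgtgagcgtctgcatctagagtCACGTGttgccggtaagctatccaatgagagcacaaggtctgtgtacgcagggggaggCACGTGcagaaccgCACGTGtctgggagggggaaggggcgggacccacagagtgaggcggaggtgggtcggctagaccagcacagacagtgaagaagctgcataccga
Per3: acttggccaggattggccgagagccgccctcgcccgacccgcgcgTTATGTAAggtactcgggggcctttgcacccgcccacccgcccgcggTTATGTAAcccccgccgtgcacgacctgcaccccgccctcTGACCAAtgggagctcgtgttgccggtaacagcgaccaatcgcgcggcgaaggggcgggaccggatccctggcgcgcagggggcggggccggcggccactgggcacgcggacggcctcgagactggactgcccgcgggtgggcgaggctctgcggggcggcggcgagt
Tef: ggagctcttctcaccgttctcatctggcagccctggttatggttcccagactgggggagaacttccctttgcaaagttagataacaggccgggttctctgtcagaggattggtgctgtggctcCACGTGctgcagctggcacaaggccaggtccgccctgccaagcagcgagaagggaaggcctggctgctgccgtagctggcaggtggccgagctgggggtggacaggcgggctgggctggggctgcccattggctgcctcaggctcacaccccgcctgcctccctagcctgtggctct
Arntl: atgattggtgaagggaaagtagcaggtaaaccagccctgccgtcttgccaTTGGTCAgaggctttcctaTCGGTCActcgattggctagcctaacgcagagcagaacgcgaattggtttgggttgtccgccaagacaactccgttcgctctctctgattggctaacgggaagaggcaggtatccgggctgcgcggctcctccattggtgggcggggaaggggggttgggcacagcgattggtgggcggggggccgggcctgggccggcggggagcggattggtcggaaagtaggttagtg

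Among the output factors, Dbp read 131, 104 and 193 TPM in saline mdx and 31.8, 52.5 and 48.6 TPM in treated mdx:Utrn+/-. Every treated library lay below every saline mdx library. The log2 difference was -1.57 (-2.62 to -0.52), and the authors' deposited table gives -1.65. Hlf read 6.45, 9.32 and 10.9 against 2.95, 3.98 and 3.79 TPM, again without overlap, a difference of -1.02 (-1.73 to -0.31). Tef read 87.0, 163 and 180 against 81.3, 73.4 and 57.1 TPM, which are separate as deposited and overlap after scaling, a difference of -0.88 (-1.66 to -0.10).

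Of the repressors, Ciart, which blocks CLOCK-BMAL1, read 22.3, 18.7 and 22.4 TPM in saline mdx and 6.31, 4.00 and 4.99 TPM in treated mdx:Utrn+/-. That was the largest difference of the list, -1.79 (-3.20 to -0.38). Per3 read 14.2, 22.1 and 30.9 against 8.35, 7.73 and 6.63 TPM, a difference of -1.31 (-2.25 to -0.37). Nr1d2 read 74.8, 88.2 and 115 against 32.1, 57.4 and 51.7 TPM, a difference of -0.90 (-1.64 to -0.17). Cry2 was narrow in both groups, 16.4, 15.5 and 16.5 against 9.91, 10.3 and 11.2 TPM, at -0.50 (-1.11 to 0.11). None of these 4 overlapped. Per1 (-0.39), Per2 (-1.14) and Nr1d1 (-0.27) overlapped, and Nr1d1 was high in treated libraries 2 and 3 (33.4 and 32.2 TPM) and low in library 1 (5.58 TPM).

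The activators ran the other way. Arntl read 2.95, 2.02 and 0.918 TPM in saline mdx and 1.67, 12.1 and 7.71 TPM in treated mdx:Utrn+/-, a difference of 1.28 (0.02 to 2.53) that rested on treated libraries 2 and 3. Clock read 6.66, 4.66 and 5.05 against 5.06, 11.3 and 7.40 TPM, at 0.48 (-0.09 to 1.05). Outside these groups the clock genes spread widely: Dbp read 38.0, 38.3 and 171 TPM in mdx with PB1046 and 56.0, 132 and 90.4 TPM in mdx:Utrn+/- with saline. For Dbp the average PB1046 difference was -1.23 and the average genotype difference -0.34, for Per3 -0.96 and -0.35, for Hlf -0.42 and -0.60. The list median kept its sign in every alternative run, from -0.63 to -0.34. The labels give no hour at which hearts were taken, so the hour cannot be set beside these values.

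**Figure D4:**
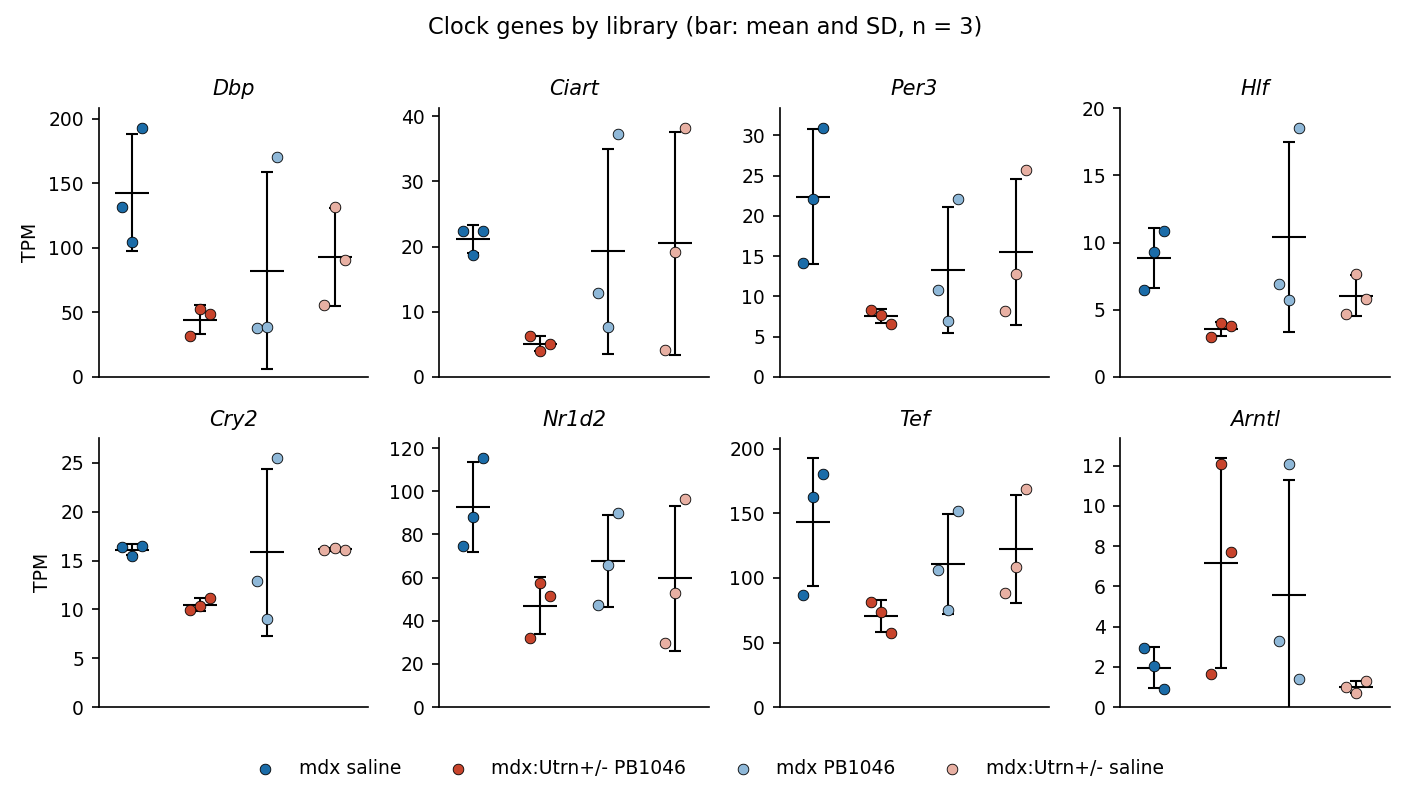
TPM of 8 clock genes (vertical axes, from 0) in each of the 12 libraries by group, with the mean and SD of 3 libraries as bars, which are cut off at 0. Dbp, Ciart, Per3, Hlf, Cry2 and Nr1d2 show every treated mdx:Utrn+/- library below every saline mdx library, while Arntl reaches 12.1 and 7.71 TPM in treated libraries 2 and 3.

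Several atrial genes were lower. Myl7, the atrial regulatory light chain, read 54.1, 32.4 and 68.8 TPM in saline mdx and 5.72, 18.5 and 4.18 TPM in treated mdx:Utrn+/-, a difference of -2.45 (-4.63 to -0.27). Myl4, the atrial essential light chain, read 43.3, 24.2 and 38.1 against 8.65, 20.3 and 6.57 TPM, at -1.53 (-2.94 to -0.12). Mybphl, a myosin-binding protein of atrium and conduction cells, read 3.83, 3.08 and 3.14 against 1.27, 0.729 and 0.682 TPM, at -1.14 (-1.87 to -0.42). In none of the 3 did the groups overlap. Of 8 tested atrial markers 5 were lower and 3 higher, and the median was -0.73. The 3 at an unadjusted p under 0.05 (0.563% of all genes) were 1 with the term for the 3 lowest library numbers and 1 without saline mdx library 1, saline mdx library 3, treated library 1 or treated library 3. Sln, the atrial regulator of the calcium pump, was at -2.02 (-4.13 to 0.09) with overlap. Nppa, the atrial natriuretic peptide that stressed ventricle also makes, went against the list, with 4454, 1103 and 405 TPM in saline mdx and 2001, 675 and 2363 TPM in treated mdx:Utrn+/-, at 0.31 (-1.59 to 2.21), and Bmp10 was below the filter. In mdx:Utrn+/- with saline Myl7 ran from 0.759 to 54.0 TPM, so its average genotype difference of -2.16 spans libraries that differ by far. Whether the share of atrial tissue differed between dissections was not tested.

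Genes that burn fatty acids were mostly higher in treated mdx:Utrn+/-. Of 32 members, all tested, 31 were higher and 1 lower, with a median of 0.35, and 3 had an unadjusted p under 0.05, against 54.5% higher and 0.883% at that p over all genes. With the term for the 3 lowest library numbers 1 of the 32 was under it. Acot1, which cleaves fatty acyl-CoA, read 6.91, 2.81 and 7.92 TPM in saline mdx and 15.8, 16.6 and 10.7 TPM in treated mdx:Utrn+/-. The groups did not overlap, and the difference was 1.30 (0.26 to 2.33). Pdk4, the kinase that turns pyruvate dehydrogenase off when fat is burned, read 151, 23.4 and 31.4 against 204, 156 and 189 TPM, at 1.97 (0.20 to 3.74). In Pdk4, saline mdx library 1 stood well above the other saline libraries, near the treated ones. Cd36, the fatty acid transporter, showed it too, with 802, 353 and 451 TPM against 606, 690 and 863 TPM, at 0.58 (-0.11 to 1.27).

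The score of the list, the mean of its members' centred log2 values, was 0.22, -0.67 and -0.45 in saline mdx and 0.29, -0.18 and 0.34 in treated mdx:Utrn+/-. Saline mdx library 1 thus lay among the treated libraries, and treated library 2 nearest the other saline ones. Without saline mdx library 1 the median was 0.57 and 11 of 32 members had an unadjusted p under 0.05, where 463 of all genes (3.62%) did, 327 of them higher. Without saline mdx library 2 it was 0.16 with 0 such members, and without treated library 3 it was 0.21 with 1. The endothelial score of the same libraries ran -0.44, 0.30 and 0.64 against -0.43, 0.91 and -0.19, so it was high where the fatty acid score was low. With that score as a term in the fit the median was 0.32 and 32 of 32 members were higher. A single such term does not settle what part cell content has in this list, and that part was not tested. The median average genotype difference of the list was 0.31 and its median average PB1046 difference 0.04.

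**Figure D5:**
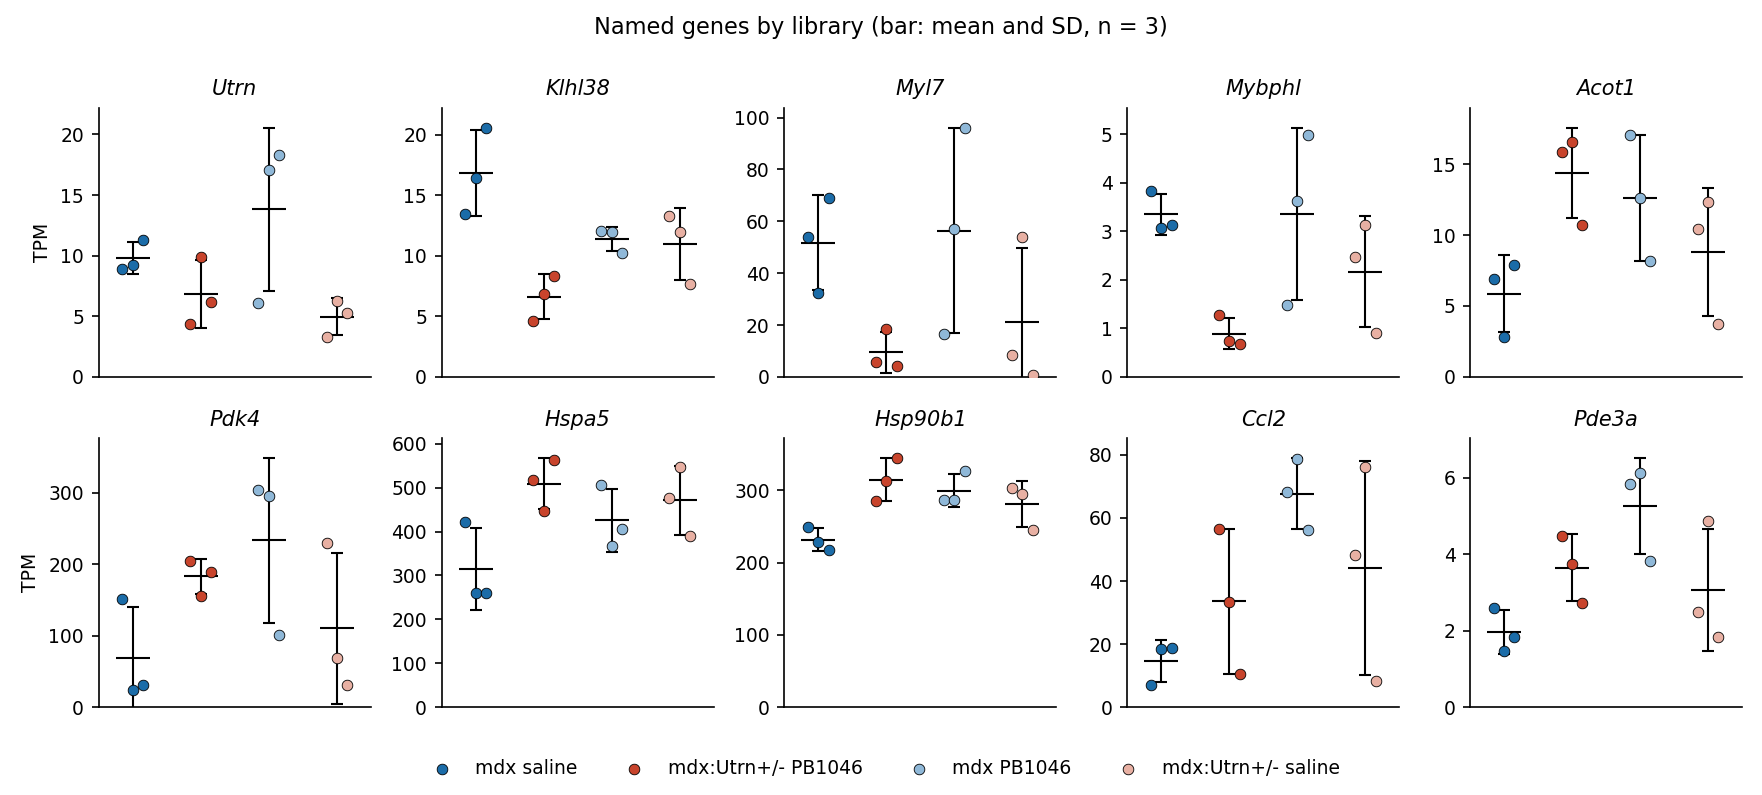
TPM of 10 genes (vertical axes, from 0) in each of the 12 libraries by group, with the mean and SD of 3 libraries as bars, which are cut off at 0. Klhl38, Myl7 and Mybphl are lower and Acot1, Hsp90b1 and Pde3a higher in every treated mdx:Utrn+/- library than in every saline mdx library, while those of Utrn, Pdk4, Hspa5 and Ccl2 overlap in deposited TPM or after scaling.

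Chaperones were also mostly higher. Of 16 genes of the unfolded protein response 12 were higher, with a median of 0.27, and of 13 heat shock genes 11 were higher, with a median of 0.40. In each list 2 had an unadjusted p under 0.05 (0.883% of all genes), and 0 did without saline mdx library 2 or saline mdx library 3. The heat shock score was 0.10, -0.48 and -0.26 in saline mdx and 0.53, 0.25 and -0.37 in treated mdx:Utrn+/-. It was -0.56, -0.18 and 1.16 in mdx:Utrn+/- with saline. Hsp90b1, the HSP90 of the endoplasmic reticulum, read 249, 229 and 217 TPM in saline mdx and 286, 313 and 345 TPM in treated mdx:Utrn+/-, without overlap, at 0.52 (0.08 to 0.95). Hspa5, the reticulum's HSP70, read 422, 260 and 260 against 518, 446 and 562 TPM, at 0.81 (0.13 to 1.48); scaling brought its groups to overlap. Manf, a secreted factor of reticulum stress outside the lists, read 28.4, 28.1 and 24.5 against 29.3, 42.8 and 56.6 TPM, at 0.68 (0.15 to 1.21). In the cytosol, Hsp90aa1 read 144, 115 and 106 against 190, 215 and 149 TPM, at 0.67 (0.06 to 1.28). Stress regulators of the same list were not high: the transcription factors Ddit3 and Atf4 were at -0.27 and -0.01, and the pseudokinase Trib3 was at -0.30. Of the average parts of the Hspa5 difference, genotype gave 0.69 and PB1046 0.12. The median of the unfolded protein response list was 0.07 without treated library 3 and 0.53 without treated library 2.

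Of the signaling named by the study, the medians of the cAMP-PKA-CREB, CREB target and NF-kB lists lay between -0.12 and 0.11. The intervals of most target genes were wide. The 4 tested genes of the VIP system list were Adcyap1r1, Ramp1, Ramp2 and Ramp3, and the Ramp genes do not encode VIP receptors. Of these 4, 3 were higher and 1 lower, with a median of 0.31 that was 0.03 without saline mdx library 1. VIP acts through Vipr1, Vipr2 and Adcyap1r1; the first pair were below the filter, with at most 0.451 TPM in these 6 libraries, and Adcyap1r1 read 1.07, 3.10 and 2.51 against 5.78, 3.78 and 1.70 TPM, at 0.58 (-0.65 to 1.82). Of 39 tested genes of the cAMP-PKA-CREB pathway 27 were higher and 12 lower, with a median of 0.11. At an unadjusted p under 0.05 there were 0 of them (0.883% of all genes). Without the scaling 20 were higher and 19 lower, with a median of 0.03, so the lean is not stable. For 28 of these 39 the interval lay within 1 log2 unit of 0, but for 0 of 4 tested genes of the VIP system. Pde3a, a phosphodiesterase that breaks down cyclic AMP in heart, was the member without overlap, at 2.59, 1.46 and 1.82 against 4.47, 3.73 and 2.72 TPM and 0.71 (-0.01 to 1.42). Prkaca, the catalytic subunit of protein kinase A, read 146, 91.6 and 79.1 against 103, 105 and 123 TPM, at 0.19 (-0.42 to 0.80), and Creb1 was at -0.10 (-0.56 to 0.36). Of 27 CREB targets 12 were higher and 15 lower, with a median of -0.12, and 9 of 27 intervals lay within 1 unit. Fos, an immediate early target, read 209, 114 and 166 against 145, 104 and 46.1 TPM, at -0.75 (-1.73 to 0.23). Fos also belongs to a list of 16 genes that tissue dissociation can induce, of which 13 were lower and 3 higher. Their median was -0.37, and 0 had an unadjusted p under 0.05 (0.883% of all genes). That list summed to 1857, 1193 and 1729 TPM in saline mdx and to 1401, 1498 and 697 TPM in treated mdx:Utrn+/-, and its median was 0.05 without treated library 3. Its part in the other results was not tested. Of 19 cell cycle genes 16 were lower, with a median of -0.26 that was -0.04 without saline mdx library 2.

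Of 29 tested NF-kB targets 16 were higher and 13 lower, with a median of 0.08 and 0 at an unadjusted p under 0.05 (0.883% of all genes). Only 9 of 29 intervals lay within 1 log2 unit, so a 2-fold difference lies inside the interval of most targets. The sign of that median was not stable: it was -0.10 with limma-voom and -0.14 without treated library 2. Ccl2, the monocyte chemokine, read 6.89, 18.4 and 18.6 TPM in saline mdx and 56.7, 33.3 and 10.6 TPM in treated mdx:Utrn+/-, at 1.06 (-0.61 to 2.72), so treated library 3 lay among the saline ones. Its neighbour Ccl7 read 5.46, 10.05 and 9.19 against 16.2, 14.1 and 10.07 TPM, without overlap, at 0.74 (-0.28 to 1.75). Among 34 pathway components 15 were higher, with a median of -0.01, and 30 intervals lay within 1 unit. Nfkbiz, a nuclear IkB protein, was lower at 6.15, 7.20 and 6.34 against 2.54, 6.06 and 2.24 TPM, without overlap, at -0.75 (-1.40 to -0.10). Tlr2, a receptor that feeds the pathway, was at -0.69 (-1.47 to 0.08), also without overlap.

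Fibrosis and stress genes depended on single libraries. Of 39 extracellular matrix genes 18 were higher and 21 lower, with a median of -0.0047. Spp1, osteopontin, read 8.45, 31.3 and 20.3 against 60.2, 38.3 and 36.7 TPM, without overlap, at 1.35 (-0.40 to 3.09). Postn, made by activated fibroblasts, was at -1.02 (-2.53 to 0.49), but saline mdx library 2 read 245 TPM against 50.9 and 16.3 TPM in the others and 25.4 to 29.9 TPM in treated mdx:Utrn+/-. Of 16 cardiac stress genes 12 were higher, with a median of 0.26. Acta1, the skeletal actin that stressed ventricle makes, read 768, 71.4 and 56.7 against 496, 267 and 645 TPM, at 1.66 (-0.36 to 3.68), and the natriuretic peptide Nppb 1710, 440 and 266 against 897, 535 and 2014 TPM, at 0.84 (-0.67 to 2.34). In both, saline mdx library 1 was the high one of its group.

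Among genes outside the lists, Klhl38, a kelch-like protein gene, stood first in the authors' deposited table, with a log2 difference of -1.28 and p = 0.000111. It read 13.5, 16.5 and 20.6 TPM in saline mdx and 4.65, 6.84 and 8.36 TPM in treated mdx:Utrn+/-, at -1.17 (-1.75 to -0.59). Its average PB1046 and genotype differences were both negative, -0.74 and -0.43, and the groups with 1 factor changed read 10.3 to 12.0 TPM (PB1046) and 7.64 to 13.3 TPM (genotype). Hey2, a repressor that marks the ventricular compact layer, read 5.38, 5.003 and 7.58 against 1.62, 2.89 and 2.98 TPM, at -0.95 (-1.46 to -0.43). Both were without overlap and lower in every alternative. Hmgb2, a chromatin protein, was lower at -0.64 (-1.12 to -0.17), and Dbr1, which opens intron lariats, at -0.51 (-0.92 to -0.10).

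On the other side, Cox6b2, a cytochrome oxidase subunit best known from testis, read 1.61, 1.16 and 0.676 TPM in saline mdx and 3.33, 3.02 and 4.23 TPM in treated mdx:Utrn+/-, at 1.14 (0.36 to 1.93). Tecpr1, which acts in autophagy, read 8.01, 8.46 and 7.75 against 8.85, 15.95 and 9.25 TPM, at 0.47 (0.11 to 0.83). Scd4, the heart's stearoyl-CoA desaturase, read 21.4, 3.17 and 5.08 against 13.6, 22.1 and 27.5 TPM, at 1.43 (0.34 to 2.51), with saline mdx library 1 again among the treated ones. Erdr1 read 0, 0.115 and 7.51 against 16.3, 21.1 and 14.2 TPM, at 3.12 (0.79 to 5.45), and as a Y chromosome entry with near-identical copies its reads are uncertain. Scgb3a1 rested on 1 to 16 reads a library.

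Genes of blood cells leaned the same way, with none past the threshold. All 7 tested erythroid and platelet genes were higher in treated mdx:Utrn+/-, with a median of 1.76 and 0 at an unadjusted p under 0.05 (0.883% of all genes). The list summed to 69.4, 135 and 28.1 TPM in saline mdx and 147, 1035 and 91.0 TPM in treated mdx:Utrn+/-. Without treated library 2 the median was 0.96 with 6 of 7 higher, and without treated library 3 it was 2.71. Hba-a1, a haemoglobin gene with a near-identical copy in Hba-a2, read 8.86, 15.8 and 2.91 against 26.9, 131 and 11.9 TPM, at 2.14 (-0.18 to 4.45). S100a9, an alarmin of neutrophils, read 2.14, 1.19 and 0.318 against 4.48, 10.9 and 2.08 TPM, at 1.53 (0.50 to 2.56), from 2 to 49 reads a library. Of the 3 tested neutrophil genes, S100a8, its partner, was at 1.35 (0.11 to 2.59) and Csf3r, the receptor for granulocyte colony-stimulating factor, at -0.07 (-0.85 to 0.71). The part of blood in the other results was not tested.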

How the data were processed

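The 12 libraries hold poly-A RNA of isolated cardiomyocytes, and GEO's labels place 3 in every group. The authors deposited 1 table on mm10, per the submitters' processing notes, which also name edgeR. It is named for raw counts, but the deposited values are TPM, with the same total in every library. It also holds the authors' comparisons, holding, per the file headers, the log2 fold change, the mean CPM on a log2 scale, the likelihood ratio (a score), and for each gene its p-value with the false discovery rate. The authors' fold change is the second group minus the first (r -0.989 to -0.992 with first minus second), so its sign was turned. The sources used here do not give the aligner or counter. TPM steps gave back whole reads, within 0.1 reads, for 100% of 18530 genes, 7234100 to 25458194 a library.

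TPM were divided by trimmed-mean factors (0.827 to 1.28), put on log2(TPM + 1) and fitted with limma 3.58.1 (R 4.3.3), trend and robust, using group means over the 12 libraries (residual degrees of freedom 8), for 12798 genes with at least 1 TPM in 3 libraries. The threshold was a Benjamini-Hochberg adjusted p of 0.05, and intervals are 95%. Fold changes of low genes are understated on this scale. The fit was tested on simulated data. Same-numbered libraries of the 2 groups did not deviate together, so no pairing was used.

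The comparison, the gene lists and the rule for named genes were chosen with earlier results of these data known. That rule takes Utrn, Dmd and the VIP receptors, 12 genes a direction by unadjusted p, up to 4 a list by p, 2 a list by the narrowest interval and the 10 most abundant, and allows 186 genes. Arntl, Nr1d2, Tef, Clock, Nr1d1, Per1, Ddit3, Atf4, Trib3, Prkaca, Creb1, Nppa and Nppb lie outside it and were named after their values were seen. Alternatives changed scaling, pseudocount, filter, libraries fitted, tool, moderation, replicate block, terms for Rn45s, endothelial score and library number, and left out libraries. The values of 1 fatty acid oxidation gene are not reported here.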

Additional observations from a re-analysis of the deposited data

How the results depend on the processing

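With 3 libraries a group the intervals of most genes did not leave out a difference of 0.5 log2 units. No gene passed the adjusted threshold in any alternative run. The count at an unadjusted p under 0.05, 113 as reported, was 238 with no filter on low values, 64 with at least 5 TPM, 189 with only the 6 libraries, 181 with the replicate block, 233 with the endothelial score as a term and 209 without both saline mdx library 1 and treated library 3. Leaving out a library gave 60 to 463, the extremes without treated library 1 and saline mdx library 1, with 70 without saline mdx library 3, 189 without treated library 2 and 171 without library 3 of mdx:Utrn+/- with saline. Without saline mdx library 1, 327 of the genes were higher, against 41 of 113. The count of intervals within 1 log2 unit, 10116 as reported, was 15508 of 18530 genes with no filter. With a pseudocount of 0.1 it was 8295 and with limma-voom 8446. When a library was left out it was 8354 to 10421, and 7893 without that pair. The replicate block rests on numbers that do not pair the libraries: same-numbered deviations correlated at -0.44 to 0.34, and 2 of 6 libraries correlated best with their own number. The block moved the count of calls from 113 to 181. No called difference reversed, since none was called. The cause of these shifts was not tested.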
